A study of Mus musculus with 12 samples.

Results

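The Slc25 genes encode the carriers that move metabolites, nucleotides, cofactors and ions across the inner membrane of the mitochondrion. Their expression was followed in white adipose tissue of mice kept in the cold. Members were taken by name, as genes with a probe set whose single annotated symbol begins with Slc25a, and each gene was represented by its brightest probe set over the arrays. This gave 44 genes of 18193 on the array. A total of 38 rose above the detection filter, a log2 signal of 4 on at least 3 arrays, and entered the tests among 12855 genes. Slc25a2, Slc25a13, Slc25a18, Slc25a31, Slc25a48 and Slc25a54 did not pass the filter. Members that entered only through the group in which they were high are named as such.

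The tissue came from male C57/BL6 mice, 6 to 8 weeks old, that had been housed at 22 °C. Cold-exposed mice spent 1 week or 5 weeks at 4 °C, after a period of 1 to 3 weeks at 18 °C. Control mice of the same weeks carry 30 °C in the array titles but room temperature in the tissue descriptions, so their temperature is not settled by the labels, and whether they also passed through 18 °C is not stated. Each of the 4 groups (cold at 1 week, control at 1 week, cold at 5 weeks, control at 5 weeks) held 3 Affymetrix arrays, each made from 5 µg of total RNA. The fat depot is not named. Nothing in the labels ties each array to its own animal, so the tests here weigh only array-to-array spread, which may be technical.

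Carriers of this family share a fold of repeated membrane helices and exchange a substrate of the matrix for another of the intermembrane space. In fat cells they link pathways that are split by the inner membrane. Acylcarnitine enters for oxidation, citrate leaves for fatty acid synthesis, malate, oxoglutarate, aspartate and glutamate carry reducing equivalents, and phosphate and ADP enter to be made into ATP. The uncoupling protein of brown fat, Ucp1, belongs to the same protein family but carries another symbol and was not counted as a member.

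White adipocyte genes were bright on all arrays, with Adipoq, which encodes adiponectin, at a log2 signal of 14.6 to 14.8. All 9 genes of a brown and beige adipocyte list rose with cold at both weeks. Their summed linear signal was 89615 to 106804 after 1 week of cold against 2990 to 6432 in the 1-week controls, and 50580 to 75677 after 5 weeks of cold against 5652 to 6050 in the 5-week controls. Of 6 white adipocyte genes tested, 2 fell and 1 rose at each week. Of 10 macrophage genes, 9 fell at each week and 8 at both, while C1qa rose at 1 week. Skeletal muscle genes were uneven. Of 20, Myh2 and Tnnt1 did not pass the filter, and of the 18 tested 2 rose at 1 week and 9 fell at 5 weeks. Their mean log2 signal was 5.27, 9.34 and 5.36 after 1 week of cold, against 5.38, 5.66 and 5.25 in the 1-week controls, and 5.12, 5.10 and 4.87 after 5 weeks of cold, against 7.80, 8.08 and 7.96 in the 5-week controls. RNA quality also differed. The Gapdh signal of the 3′ probe set minus that of the 5′ probe set, which grows as transcripts shorten, was -0.08, 0.34 and -0.08 after 1 week of cold, against 0.90, 3.00 and 3.12 in the 1-week controls, and 0.96, 0.19 and 3.01 after 5 weeks of cold, against 0.03, -0.01 and -0.08 in the 5-week controls. The same measure for Actb was 2.03, 1.84 and 2.80 after 5 weeks of cold, against 1.04, 1.10 and 1.16 in the 5-week controls, and lay between 1.01 and 1.35 at 1 week. Calls that ended with one of these measures in the fit are named with the counts.

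More carriers rose than fell in the cold at both weeks. In a limma fit with Benjamini-Hochberg adjustment over all genes at 0.05, 17 of the 38 tested members rose and 4 fell after 1 week, and 18 rose and 6 fell after 5 weeks. Of all genes tested, 49.5% were called in either direction at 1 week and 36.2% at 5 weeks. As shares, 44.7% of the members rose and 10.5% fell at 1 week, against 17.9% and 31.6% of all genes tested. The 17 include Slc25a41, which entered through its cold arrays of that week, and without it 16 of 37 rose, 43.2%. At 5 weeks 47.4% rose and 15.8% fell, against 15.0% and 21.2% of all genes. The median difference of the members, cold minus control on the log2 scale, was 0.23 at 1 week and 0.15 at 5 weeks, beside -0.08 and -0.03 over all genes. All arrays of the cold group lay above all arrays of the control group in 21 members at 1 week and in 19 at 5 weeks, and below them in 7 and 8 members. The 21 again include Slc25a41. Over all genes those shares were 26.0% and 28.3% above, and 33.7% and 30.7% below. In bulk tissue, fewer cells of a type and less RNA per cell cannot be told apart, and the part of the brown and beige adipocyte signal in these counts was not tested.

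Fewer calls were made at each week under alternatives that bear on the RNA measures. Without the 1-week control arrays 2 and 3, whose Gapdh values were the highest, 12 members rose and 2 fell, which leaves 1 control array at 1 week and takes its spread to be like that of the other groups. With the Gapdh measure in the fit, 11 rose and 1 fell, against 17 and 4. The 9 calls that ended were those of Slc25a1, Slc25a10, Slc25a12, Slc25a15, Slc25a25, Slc25a30, Slc25a37, Slc25a41 and Slc25a44. At 5 weeks the Gapdh measure ended the call of Slc25a36. With the Actb measure in the fit, 8 members rose and 1 fell at 5 weeks, against 18 and 6. The 15 calls that ended were those of Slc25a3, Slc25a4, Slc25a5, Slc25a10, Slc25a12, Slc25a14, Slc25a15, Slc25a16, Slc25a24, Slc25a26, Slc25a33, Slc25a35, Slc25a36, Slc25a38 and Slc25a46. The groups do not overlap in that measure at 5 weeks, so it and cold cannot be fully told apart there. The same limit holds for the Gapdh measure at 1 week and at 5 weeks, and for the mean of the muscle list at 5 weeks. With the mean of the muscle list in the fit, 14 members rose and 1 fell at 5 weeks, and the 9 calls of Slc25a5, Slc25a10, Slc25a11, Slc25a12, Slc25a14, Slc25a26, Slc25a36, Slc25a38 and Slc25a45 ended. At 1 week the muscle list in the fit ended the calls of Slc25a15 and Slc25a25. After median centring of each array over the tested genes, 23 members rose and 2 fell at 1 week, and 19 rose and 4 fell at 5 weeks.

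The 11 carriers that rose at both weeks were Slc25a5, Slc25a11, Slc25a15, Slc25a17, Slc25a20, Slc25a33, Slc25a34, Slc25a35, Slc25a39, Slc25a42 and Slc25a51. Over all genes tested, 8.58% rose at both weeks. Slc25a12 and Slc25a24 fell at both weeks. Of all genes tested, 31.6% fell at 1 week and 21.2% at 5 weeks, and the share that fell at both was not counted. Slc25a10 alone among the members rose at 1 week and fell at 5 weeks, beside 1.63% of all genes called in opposite directions.

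**Figure D1:**
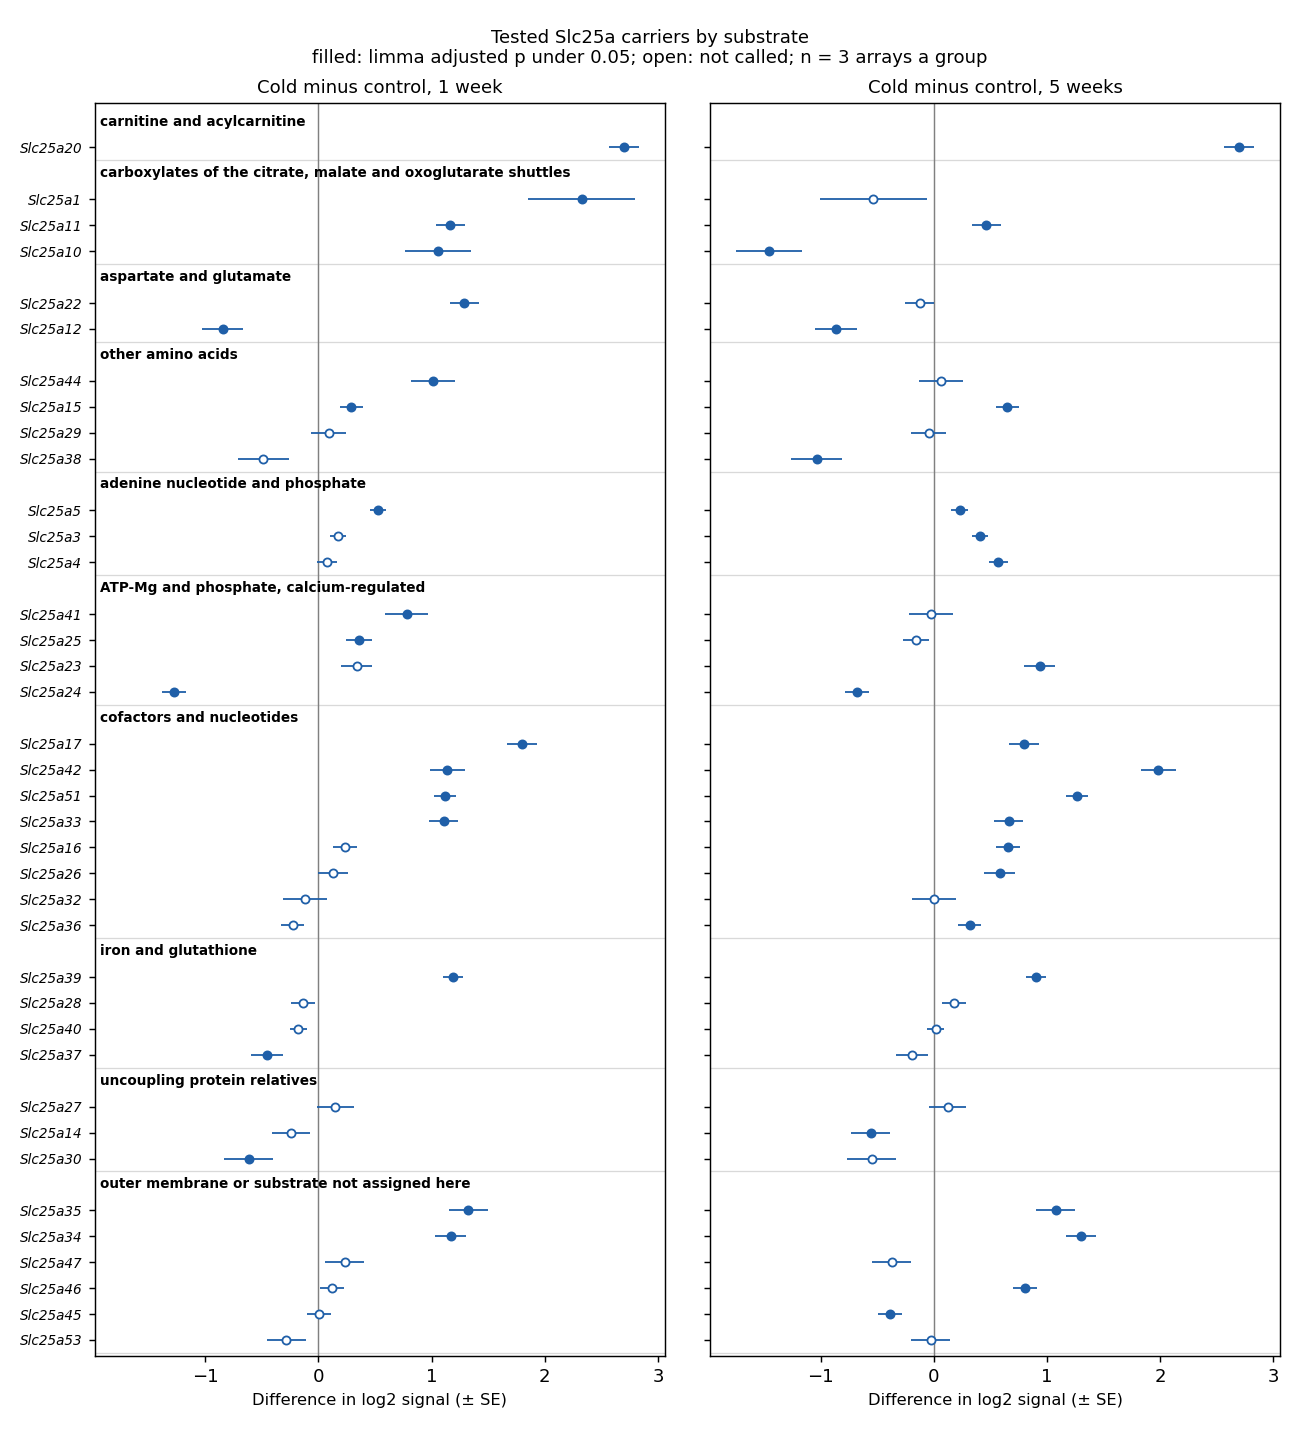
Differences in log2 signal, cold minus control, for the 38 tested Slc25a carriers at 1 week (left) and 5 weeks (right), by substrate, with standard errors from limma. Filled points passed an adjusted p of 0.05. Slc25a20 sits at 2.70 in both panels, and Slc25a1, Slc25a10 and Slc25a22 lie far to the right at 1 week and at or left of 0 at 5 weeks.

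**Figure D2:**
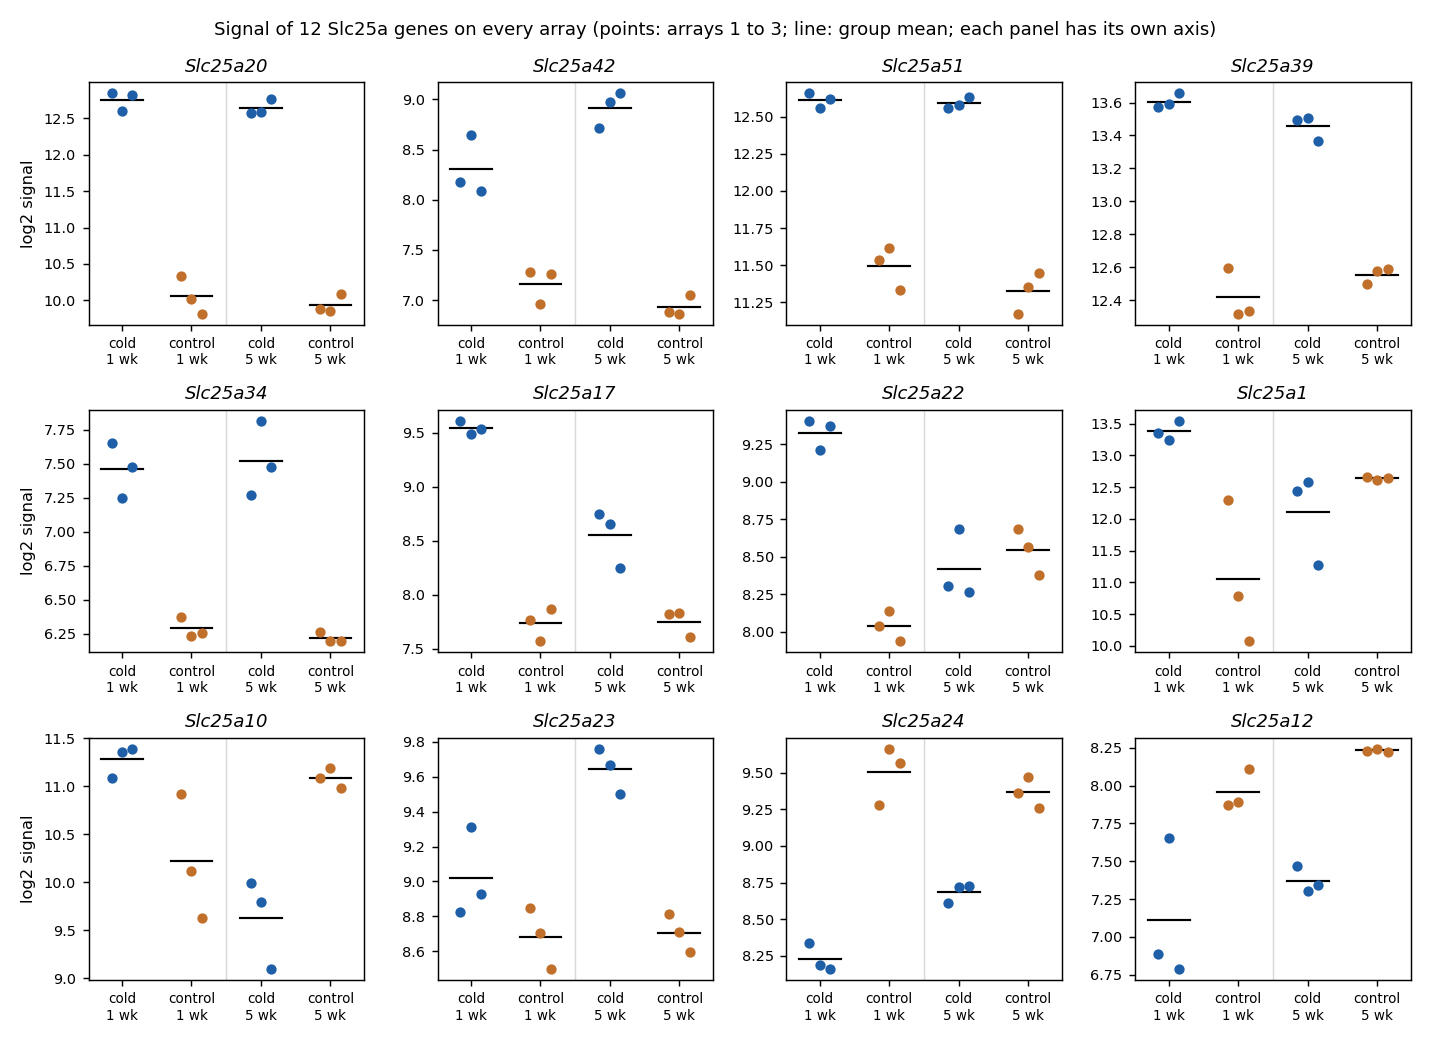
Log2 signal of 12 carriers on every array, with cold arrays in blue, control arrays in orange and a line at each group mean. Slc25a20, Slc25a42, Slc25a51, Slc25a39, Slc25a34 and Slc25a17 lie higher in cold than in control at both weeks with no overlap, and Slc25a24 and Slc25a12 lie lower. Slc25a10 is higher in cold at 1 week and lower in cold at 5 weeks.

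Promoter sequence was at hand for 34 of the 44 members, as RefSeq windows on GRCm38.p6 covering 250 bases before the transcript start. The 4 below belong to carriers on which the results turn, a pair that share a motif (Slc25a20 and Slc25a17), the carrier with an oestrogen-related receptor half-site (Slc25a34), and the citrate carrier (Slc25a1). Each is printed 5′ to 3′ on the strand of the gene, with the motif in capitals, CCGGAAG of ETS factors in Slc25a20 and Slc25a17, AAGGTCA (here on the opposite strand) in Slc25a34, and the E-box CACGTG in Slc25a1.
Slc25a20 promoter, chr9:108661886-108662135, + strand: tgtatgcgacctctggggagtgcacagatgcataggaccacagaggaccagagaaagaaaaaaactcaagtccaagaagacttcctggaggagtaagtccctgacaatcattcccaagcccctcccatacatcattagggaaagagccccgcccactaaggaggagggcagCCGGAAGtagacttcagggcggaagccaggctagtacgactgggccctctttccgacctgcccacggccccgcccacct
Slc25a17 promoter, chr15:81360766-81361015, - strand: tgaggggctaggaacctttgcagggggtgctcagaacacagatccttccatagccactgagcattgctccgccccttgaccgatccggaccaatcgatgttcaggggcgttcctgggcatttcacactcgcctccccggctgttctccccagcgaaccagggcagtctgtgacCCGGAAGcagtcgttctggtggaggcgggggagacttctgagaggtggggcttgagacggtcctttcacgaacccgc
Slc25a34 promoter, chr4:141623835-141624084, - strand: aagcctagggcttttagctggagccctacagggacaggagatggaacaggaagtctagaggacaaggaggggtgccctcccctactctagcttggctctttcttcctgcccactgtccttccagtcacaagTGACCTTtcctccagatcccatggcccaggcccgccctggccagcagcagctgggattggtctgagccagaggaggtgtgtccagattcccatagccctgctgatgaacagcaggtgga
Slc25a1 promoter, chr16:17928220-17928469, - strand: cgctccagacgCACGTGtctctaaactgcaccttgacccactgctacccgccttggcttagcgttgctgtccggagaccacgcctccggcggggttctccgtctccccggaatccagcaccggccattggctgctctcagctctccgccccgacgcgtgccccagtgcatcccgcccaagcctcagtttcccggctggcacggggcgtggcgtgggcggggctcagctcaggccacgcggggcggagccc
A total of 6 motifs were searched on both strands of 43 windows of these members and of all 32851 windows. CCGGAAG was present in windows of Slc25a3, Slc25a4, Slc25a17, Slc25a20, Slc25a38 and Slc25a54, and in 6.91% of all windows. CACGTG was present in windows of Slc25a1, Slc25a13, Slc25a14, Slc25a15, Slc25a31, Slc25a33 and Slc25a36, and in 6.02% of all windows. AAGGTCA was found in Slc25a34 and in 4.08% of all windows, and its extended form TNAAGGTCA, which overlaps it, in no member window and in 1.14% of all. TGACGTCA, the cAMP response element, was found in Slc25a25 and Slc25a36, with 1.55% of all windows, and TCACNCCAC of the sterol response in Slc25a18, with 1.05%. Slc25a20 rose and Slc25a38 fell at 5 weeks, and both hold CCGGAAG. A match is a description of these letters in these windows.

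Slc25a20 had the largest difference of the family at both weeks. It encodes the carnitine-acylcarnitine carrier, which brings fatty acids bound to carnitine into the matrix and returns free carnitine. The log2 signal of Slc25a20 was 12.84, 12.60 and 12.82 after 1 week of cold, against 10.34, 10.01 and 9.82 in the 1-week controls. After 5 weeks of cold it was 12.57, 12.58 and 12.76, against 9.88, 9.86 and 10.08 in the 5-week controls. Every cold array lay above every control array. The difference was 2.70 ± 0.13 at 1 week (SE, n = 3 a group, limma adjusted p = 4.05e-07), a 6.48-fold higher signal. At 5 weeks it was again 2.70 ± 0.13 (adjusted p = 5.39e-07), 6.50-fold higher. The 2 effects differed by 0.00, with a 95% interval of -0.41 to 0.41. The other probe set of the gene gave 3.42 and 2.74. Its difference between the weeks was -0.67 and was called (limma adjusted p = 0.0179). With the Gapdh measure in the fit the brightest probe set differed by 2.57 at 1 week and 2.77 at 5 weeks. With the Actb measure it differed by 2.72 and 2.46.

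All 3 tested carboxylate carriers rose at 1 week, and their 3 cold effects were lower at 5 weeks. Slc25a1, the citrate carrier, exports citrate for fatty acid and sterol synthesis in the cytosol. Its log2 signal was 13.36, 13.23 and 13.54 after 1 week of cold, against 12.30, 10.78 and 10.07 in the 1-week controls. It was 12.44, 12.58 and 11.28 after 5 weeks of cold, against 12.65, 12.61 and 12.65 in the 5-week controls. The lowest 3 arrays of the 12 were the 1-week controls 2 and 3 and the 5-week cold array 3, which are those with the highest Gapdh 3′ minus 5′ values. The difference at 1 week was 2.32 ± 0.47 (adjusted p = 0.00193), 5.01-fold higher. At 5 weeks it was -0.53 with a 95% interval of -1.57 to 0.50 (adjusted p = 0.404). With the Gapdh measure in the fit, the 1-week difference of Slc25a1 was 0.85 (adjusted p = 0.0506). Without the 1-week controls 2 and 3 it was 1.08 (adjusted p = 0.0888), and without the 5-week cold array 3 as well it was again 1.08 (adjusted p = 0.00185). Both values rest on 1 control array at 1 week.

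Slc25a10, the dicarboxylate carrier, exchanges malate or succinate for phosphate and is known to be abundant in white fat. Its log2 signal was 11.09, 11.35 and 11.39 after 1 week of cold, against 10.91, 10.12 and 9.62 in the 1-week controls. It was 9.99, 9.79 and 9.10 after 5 weeks of cold, against 11.09, 11.19 and 10.98 in the 5-week controls. The groups did not overlap at either week, and the order was opposite. The difference was 1.06 ± 0.29 at 1 week (adjusted p = 0.011), 2.08-fold higher, and -1.45 ± 0.29 at 5 weeks (adjusted p = 0.00277), 2.74-fold lower. The other probe set of Slc25a10 showed 2.78 and -2.71, both called. The lowest 1-week control (array 3) and the lowest 5-week cold array (array 3) were again arrays of high Gapdh value. Adjusted for Gapdh, the difference of Slc25a10 was 0.23 (adjusted p = 0.52) at 1 week and -0.95 (adjusted p = 0.00579) at 5 weeks. With the Actb measure the 5-week difference was -0.51 (adjusted p = 0.613), and with the muscle list -1.32 (adjusted p = 0.0665).

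Slc25a11 exchanges oxoglutarate for malate in the malate-aspartate shuttle. It read 10.72, 10.78 and 10.65 after 1 week of cold, against 9.68, 9.47 and 9.52 in the 1-week controls, and 10.46, 10.28 and 9.90 after 5 weeks of cold, against 9.83, 9.77 and 9.66 in the 5-week controls. It rose by 1.17 ± 0.13 at 1 week (adjusted p = 4.21e-05) and by 0.46 ± 0.13 at 5 weeks (adjusted p = 0.0156). At 1 week the difference stood at 0.89 with the Gapdh measure in the fit. At 5 weeks the muscle list in the fit gave 0.54 (adjusted p = 0.0765), and leaving out 5-week cold array 1, cold array 2 or control array 3 gave 0.34 to 0.43 (adjusted p = 0.0506 to 0.0636).

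**Figure D3:**
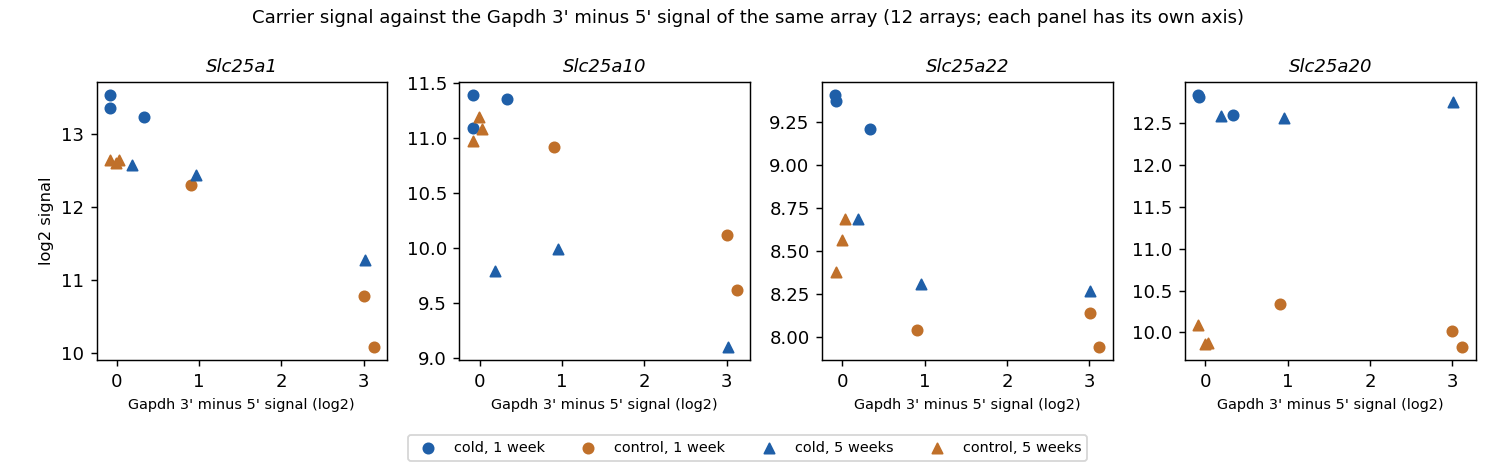
Log2 signal of Slc25a1, Slc25a10, Slc25a22 and Slc25a20 on the 12 arrays against the Gapdh 3′ minus 5′ signal of the same array. The 3 arrays at 3.00 to 3.12 on the horizontal axis hold the 3 lowest Slc25a1 signals (10.07, 10.78 and 11.28). Slc25a20 separates cold from control arrays at low and at high Gapdh values.

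Carriers of aspartate and glutamate moved in opposite directions at 1 week. Slc25a22 imports glutamate together with a proton. It read 9.40, 9.21 and 9.37 after 1 week of cold, against 8.04, 8.14 and 7.94 in the 1-week controls, and 8.30, 8.68 and 8.27 after 5 weeks of cold, against 8.69, 8.56 and 8.38 in the 5-week controls. The groups were far apart at 1 week and overlapped at 5 weeks. The difference was 1.29 ± 0.13 at 1 week (adjusted p = 2.07e-05), 2.45-fold higher, and -0.12 at 5 weeks with a 95% interval of -0.40 to 0.15 (adjusted p = 0.468). The Gapdh-adjusted difference of Slc25a22 at 1 week was 1.12 (adjusted p = 0.00182).

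Slc25a12 exports aspartate for glutamate under the control of calcium and is known for its high level in muscle, heart and brain. Its log2 signal was 6.89, 7.65 and 6.79 after 1 week of cold, against 7.87, 7.89 and 8.11 in the 1-week controls. It was 7.47, 7.30 and 7.34 after 5 weeks of cold, against 8.23, 8.24 and 8.22 in the 5-week controls. It fell by 0.85 on the log2 scale at 1 week (SE 0.18, adjusted p = 0.00293) and by 0.86 at 5 weeks (SE 0.18, adjusted p = 0.00402). The highest cold array, array 2 at 1 week, and the 5-week controls are the arrays in which the muscle list was high. With the muscle list in the fit the differences of Slc25a12 were -1.09 at 1 week and -0.29 (adjusted p = 0.181) at 5 weeks, and with the Actb measure it was -0.84 (adjusted p = 0.238) at 5 weeks. Its Gapdh-adjusted difference at 1 week was -0.72 (adjusted p = 0.0784). Slc25a13, the liver-type member of this pair, and Slc25a18, a second glutamate carrier, stayed below the filter, with log2 signals of 1.84 to 2.72 on all arrays.

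Among the carriers of other amino acids, Slc25a44 rose at 1 week, Slc25a15 rose at both weeks and Slc25a38 fell at 5 weeks. Slc25a44 carries branched-chain amino acids, which brown fat burns in the cold. On the log2 scale it read 9.41, 9.24 and 9.70 after 1 week of cold, against 8.83, 8.55 and 7.92 in the 1-week controls, and 9.07, 8.97 and 8.95 after 5 weeks of cold, against 9.01, 8.90 and 8.88 in the 5-week controls. It rose by 1.01 ± 0.20 at 1 week (adjusted p = 0.00141). At 5 weeks the difference was 0.06 with a 95% interval of -0.36 to 0.49. This call came from the brightest of 3 tested probe sets, and the others differed by 0.06 and 0.40 at 1 week, neither called. The Gapdh-adjusted difference of Slc25a44 at 1 week was 0.69 (adjusted p = 0.0735).

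Slc25a38 imports glycine for heme synthesis. Its log2 signal was 4.58, 4.59 and 4.56 after 5 weeks of cold, against 5.52, 5.59 and 5.72 in the 5-week controls, and 5.18, 5.48 and 4.98 after 1 week of cold, against 5.94, 6.11 and 5.05 in the 1-week controls. The groups separated at 5 weeks and overlapped at 1 week. It fell by 1.03 at 5 weeks (SE 0.23, adjusted p = 0.0046). At 1 week the difference was -0.49 (adjusted p = 0.0946). Adjusted for Actb, the 5-week difference of Slc25a38 was -1.21 (adjusted p = 0.173), and with the muscle list -0.69 (adjusted p = 0.16). Slc25a15, the ornithine carrier of the urea cycle, rose by 0.29 at 1 week (adjusted p = 0.036) and by 0.65 at 5 weeks (adjusted p = 0.000666). With the Gapdh measure Slc25a15 differed by 0.36 at 1 week (adjusted p = 0.109), and with the Actb measure by 0.34 at 5 weeks (adjusted p = 0.317). Leaving out any 1-week cold array or the 1-week control 2 or 3 ended its 1-week call, with 0.24 to 0.31 (adjusted p = 0.0514 to 0.118). Slc25a29, a carrier of basic amino acids, differed by 0.09 and -0.05, neither called. Of its 5 tested probe sets, 1 was called higher at 1 week, with 0.51 (limma adjusted p = 0.0186), and none was called at 5 weeks.

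The carriers that supply the ATP synthase all rose at 5 weeks, by 1.17- to 1.48-fold by their brightest probe sets. With the Actb measure in the fit none of these 5-week calls held in limma, with 0.28 for Slc25a3 (adjusted p = 0.263), 0.25 for Slc25a4 (adjusted p = 0.318) and 0.21 for Slc25a5 (adjusted p = 0.429). Slc25a5 and Slc25a4 exchange ATP for ADP, and Slc25a3 imports phosphate. Slc25a5 was at a log2 signal of 13.67, 13.55 and 13.61 after 1 week of cold, against 13.14, 13.04 and 13.06 in the 1-week controls, and at 13.34, 13.28 and 13.29 after 5 weeks of cold, against 13.04, 13.12 and 13.08 in the 5-week controls. It rose by 0.53 ± 0.07 at 1 week (adjusted p = 0.000161) and by 0.23 ± 0.07 at 5 weeks (adjusted p = 0.0291). The 5-week call of Slc25a5 ended without any one of the 6 arrays of that week, with 0.21 to 0.25 (adjusted p = 0.0511 to 0.0954). All 8 of its tested probe sets were called higher at 1 week and 3 of 8 at 5 weeks. Most are of a type that can match other transcripts, and Slc25a5 has near-identical copies, so its level is uncertain.

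Slc25a4 is the form known from heart and skeletal muscle. Its brightest probe set read 12.68, 12.66 and 12.67 after 1 week of cold, against 12.62, 12.58 and 12.59 in the 1-week controls, and 13.11, 13.01 and 13.33 after 5 weeks of cold, against 12.57, 12.54 and 12.62 in the 5-week controls. The difference was 0.08 ± 0.09 at 1 week (adjusted p = 0.481) and 0.57 ± 0.09 at 5 weeks (adjusted p = 0.000483). The other 2 tested probe sets of Slc25a4 ran the other way in time, with 0.58 and 0.67 at 1 week, both called higher, and 0.10 and 0.18 at 5 weeks, neither called. The week in which Slc25a4 rose therefore differed between probe sets. Slc25a3 rose by 0.41 at 5 weeks (adjusted p = 0.00108), with 0.17 at 1 week (adjusted p = 0.0598). Its dimmer probe set was called lower at 1 week, with -0.64, and the mean of its tested probe sets differed by 0.09 at 5 weeks (adjusted p = 0.582). Slc25a31, the testis form of the ATP carrier, stayed between 2.44 and 2.72.

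**Figure D4:**
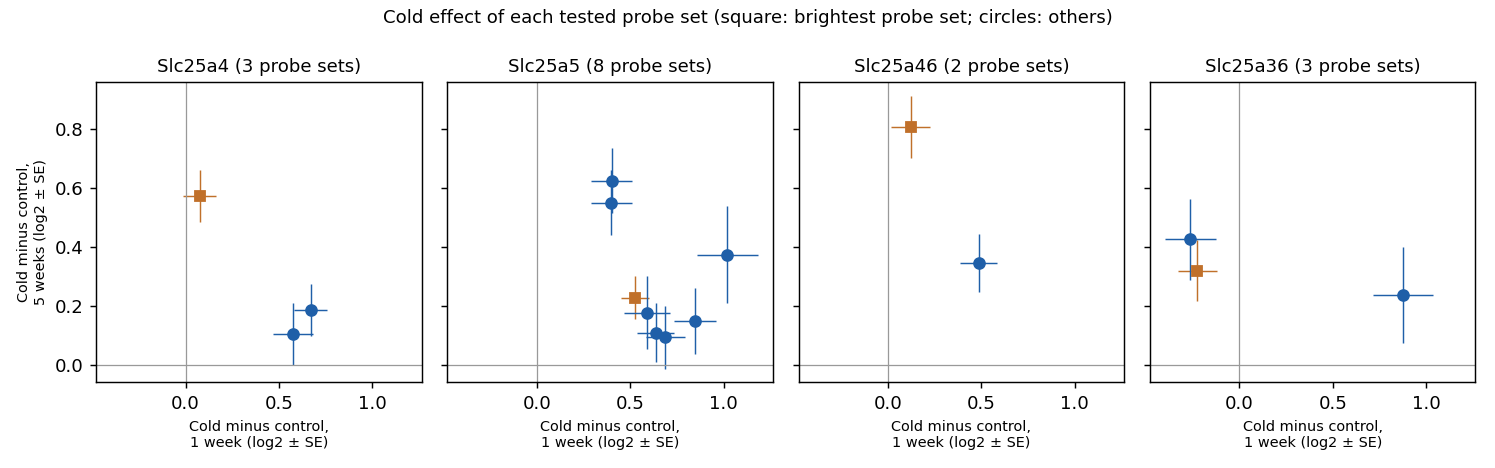
Cold effect of each tested probe set of Slc25a4, Slc25a5, Slc25a46 and Slc25a36 at 1 week (horizontal axis) and at 5 weeks (vertical axis), in log2 units with standard errors, with the brightest probe set as a square. The square of Slc25a4 lies at 0.08 and 0.57 and its circles at 0.58 and 0.10, and at 0.67 and 0.18.

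The carriers that exchange ATP-Mg for phosphate set the adenine nucleotide content of the matrix, and most sense cytosolic calcium. Slc25a24 fell at both weeks and Slc25a23 rose at 5 weeks. Slc25a24 had log2 signals of 8.34, 8.19 and 8.16 after 1 week of cold, against 9.28, 9.67 and 9.57 in the 1-week controls, and 8.61, 8.72 and 8.73 after 5 weeks of cold, against 9.36, 9.47 and 9.26 in the 5-week controls. It fell by 1.28 at 1 week (SE 0.11, adjusted p = 9.34e-06), 2.42-fold lower, and by 0.68 at 5 weeks (SE 0.11, adjusted p = 0.000688). Its other tested probe set gave -0.78, not called, and -1.43, called. That probe set passed the filter only through control arrays, all 5-week controls among them, so its 5-week call followed from the filter. Adjusted for Actb, the 5-week difference of Slc25a24 was -0.80 (adjusted p = 0.0671).

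Slc25a23 had log2 signals of 9.76, 9.67 and 9.50 after 5 weeks of cold, against 8.81, 8.71 and 8.60 in the 5-week controls, and 8.82, 9.31 and 8.93 after 1 week of cold, against 8.85, 8.70 and 8.50 in the 1-week controls. It rose by 0.94 ± 0.14 at 5 weeks (adjusted p = 0.000416), 1.91-fold higher. At 1 week the groups overlapped, the difference was 0.34 (adjusted p = 0.0615), and the highest array was the cold array 2 in which the muscle list was high. Slc25a25 read 8.13, 8.16 and 7.94 after 1 week of cold, against 7.89, 7.72 and 7.53 in the 1-week controls, and 7.93, 7.70 and 7.58 after 5 weeks of cold, against 7.84, 7.87 and 7.96 in the 5-week controls. It rose by 0.36 at 1 week (adjusted p = 0.0242) and differed by -0.16 at 5 weeks (adjusted p = 0.329). Adjusted for Gapdh, it differed by 0.16 at 1 week (adjusted p = 0.459). Without 1-week cold array 1 or 2 or control array 2 or 3, Slc25a25 differed by 0.27 to 0.36 (adjusted p = 0.0556 to 0.0974). Slc25a41 passed the filter on 4 arrays, all 3 cold arrays at 1 week among them, so a difference at that week followed from the filter. It read 4.45, 4.44 and 4.92 after 1 week of cold, at least 1.52-fold above its 1-week controls, which were all below log2 4.

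Of the 8 carriers of cofactors and nucleotides, 4 rose at 1 week, 7 rose at 5 weeks and none fell at either, beside 17.9% and 15.0% of all genes that rose. With the Actb measure in the fit the 5-week calls of Slc25a16, Slc25a26, Slc25a33 and Slc25a36 ended. At an unadjusted p under 0.05 in limma, 1 was lower at 1 week (Slc25a36) and 0 at 5 weeks. Slc25a42 brings coenzyme A into the matrix. It read 8.18, 8.65 and 8.09 after 1 week of cold, against 7.28, 6.96 and 7.26 in the 1-week controls, and 8.72, 8.97 and 9.06 after 5 weeks of cold, against 6.88, 6.87 and 7.05 in the 5-week controls. The groups lay apart at both weeks, and further at 5 weeks. It rose by 1.14 ± 0.15 at 1 week (adjusted p = 0.00015), 2.20-fold, and by 1.98 ± 0.15 at 5 weeks (adjusted p = 6.9e-06), 3.95-fold.

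Slc25a17 carries coenzyme A and other cofactors into the peroxisome rather than the mitochondrion. It read 9.61, 9.48 and 9.53 after 1 week of cold, against 7.77, 7.57 and 7.87 in the 1-week controls, and 8.75, 8.66 and 8.25 after 5 weeks of cold, against 7.82, 7.83 and 7.61 in the 5-week controls. It rose by 1.80 ± 0.13 at 1 week (adjusted p = 3.79e-06), 3.49-fold, and by 0.80 ± 0.13 at 5 weeks (adjusted p = 0.000861), 1.74-fold. The sizes ran in the opposite order to those of Slc25a42.

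Slc25a51, the carrier of NAD+, rose by 1.12 ± 0.10 at 1 week (adjusted p = 1.03e-05) and by 1.26 ± 0.10 at 5 weeks (adjusted p = 6.37e-06). All 3 of its tested probe sets were called higher at 1 week and 2 at 5 weeks, where the dimmest gave 0.23 (limma adjusted p = 0.277). Slc25a33, a carrier of pyrimidine nucleotides, rose by 1.11 at 1 week (adjusted p = 6.13e-05) and by 0.66 at 5 weeks (adjusted p = 0.00231). Slc25a36, the other pyrimidine nucleotide carrier, read 10.70, 10.37 and 10.72 after 1 week of cold, against 10.76, 10.91 and 10.80 in the 1-week controls, and 10.93, 10.95 and 10.87 after 5 weeks of cold, against 10.68, 10.59 and 10.52 in the 5-week controls. Its difference was -0.23 at 1 week (adjusted p = 0.0855), and it rose by 0.32 at 5 weeks (adjusted p = 0.0309). That call ended with the Gapdh measure (adjusted p = 0.065), the Actb measure (adjusted p = 0.309) and the muscle list (0.08, adjusted p = 0.675), and without 5-week cold array 1 or 2 or control array 2 or 3, with 0.28 to 0.32 (adjusted p = 0.0776 to 0.1). Its probe sets disagreed at 1 week, where another gave 0.88 and was called higher. Slc25a26, which imports S-adenosylmethionine, rose by 0.58 at 5 weeks (adjusted p = 0.00613), and Slc25a16, which is linked to coenzyme A, by 0.66 (adjusted p = 0.000655). At 1 week these differed by 0.13 and 0.24, neither called. The 5-week differences with the Actb measure were 0.12 for Slc25a26 (adjusted p = 0.807), 0.37 for Slc25a16 (adjusted p = 0.298) and 0.53 for Slc25a33 (adjusted p = 0.278). Slc25a32, a folate and flavin carrier, differed by -0.12 and 0.00, with 95% intervals of -0.54 to 0.30 and -0.42 to 0.42.

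Of the 4 carriers of iron and glutathione, Slc25a39 rose at both weeks and no other rose at either. It imports glutathione into the matrix, and Slc25a40 is its close relative. Slc25a39 read 13.57, 13.59 and 13.66 after 1 week of cold, against 12.60, 12.32 and 12.34 in the 1-week controls, and 13.50, 13.51 and 13.37 after 5 weeks of cold, against 12.50, 12.58 and 12.59 in the 5-week controls. It rose by 1.19 ± 0.09 at 1 week (adjusted p = 4.6e-06) and by 0.90 ± 0.09 at 5 weeks (adjusted p = 3.38e-05). All 5 of its probe sets were called higher at both weeks. The dimmest passed the filter only through its cold arrays, with controls at 2.86 to 3.47, so its calls followed from the filter. Slc25a40 differed by -0.18 (adjusted p = 0.0751) and 0.02 (adjusted p = 0.889), with a 95% interval of -0.15 to 0.19 at 5 weeks. Of the iron importers, Slc25a37 fell by 0.46 at 1 week (adjusted p = 0.0193) and differed by -0.19 at 5 weeks, and Slc25a28 differed by -0.14 and 0.18, neither called. Adjusted for Gapdh, the 1-week difference of Slc25a37 was -0.31 (adjusted p = 0.285). Without 1-week cold array 3, control array 2 or control array 3 it was -0.43 to -0.31 (adjusted p = 0.0574 to 0.0778).

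No relative of the uncoupling proteins rose, in limma after adjustment or at an unadjusted p under 0.05 (0 of 3 at either week). Slc25a30 read 6.55, 7.18 and 7.23 after 1 week of cold, against 7.85, 7.63 and 7.32 in the 1-week controls, and 7.28, 6.88 and 7.66 after 5 weeks of cold, against 7.83, 7.81 and 7.82 in the 5-week controls. It fell by 0.62 at 1 week (SE 0.22, adjusted p = 0.0356). At 5 weeks the difference was -0.55 (adjusted p = 0.0713). The 1-week difference of Slc25a30 was -0.425 with the Gapdh measure (adjusted p = 0.354), -0.11 as the mean of its tested probe sets (adjusted p = 0.603), and -0.60 to -0.40 without 1-week cold array 1, control array 1 or control array 2 (adjusted p = 0.0849 to 0.14). Slc25a14 read 5.79, 5.81 and 6.05 after 5 weeks of cold, against 6.89, 6.23 and 6.20 in the 5-week controls, and 6.14, 6.20 and 5.92 after 1 week of cold, against 6.25, 6.29 and 6.44 in the 1-week controls. It fell by 0.56 at 5 weeks (SE 0.17, adjusted p = 0.025), with -0.24 at 1 week (adjusted p = 0.258). With the Actb measure Slc25a14 differed by -0.81 at 5 weeks (adjusted p = 0.207), and without 5-week cold array 1 or 2 or control array 1 by -0.52 to -0.33 (adjusted p = 0.069 to 0.0801). Slc25a27, known from brain, differed by 0.15 and 0.12, neither called.

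Of the members that sit in the outer membrane or have no substrate assigned here, Slc25a34 and Slc25a35 rose at both weeks. Both are orphan carriers of the inner membrane. Slc25a34 read 7.65, 7.25 and 7.48 after 1 week of cold, against 6.37, 6.24 and 6.26 in the 1-week controls, and 7.27, 7.82 and 7.48 after 5 weeks of cold, against 6.27, 6.20 and 6.20 in the 5-week controls. It rose by 1.17 ± 0.14 (adjusted p = 6.15e-05) and by 1.30 ± 0.14 (adjusted p = 4.41e-05). Slc25a35 read 10.56, 10.79 and 10.68 after 1 week of cold, against 9.70, 8.86 and 9.49 in the 1-week controls, and 10.65, 10.54 and 10.48 after 5 weeks of cold, against 9.44, 9.46 and 9.53 in the 5-week controls. It rose by 1.32 ± 0.17 (adjusted p = 0.000115) and by 1.08 ± 0.17 (adjusted p = 0.000664). Adjusted for Actb, the 5-week difference of Slc25a35 was 1.31 (adjusted p = 0.0603).

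Slc25a46, an outer membrane protein tied to the shape of mitochondria, read 11.15, 10.91 and 11.12 after 1 week of cold, against 10.99, 10.94 and 10.90 in the 1-week controls, and 11.62, 11.36 and 11.64 after 5 weeks of cold, against 10.79, 10.62 and 10.79 in the 5-week controls. Its brightest probe set showed 0.12 at 1 week (adjusted p = 0.348) and rose by 0.81 at 5 weeks (adjusted p = 0.000164). The other probe set of Slc25a46 gave 0.49 and 0.34, both called higher. Adjusted for Actb, the 5-week difference of Slc25a46 was 0.57 (adjusted p = 0.126). Slc25a45 fell by 0.38 at 5 weeks (adjusted p = 0.017). Its difference was -0.23 after median centring (adjusted p = 0.115), -0.245 after quantile normalization (adjusted p = 0.103) and -0.37 with the muscle list (adjusted p = 0.148). Without 5-week cold array 1 or 2 or control array 3 it was -0.34 to -0.30 (adjusted p = 0.0628 to 0.0713). Slc25a47, which passed the filter on 3 arrays, and Slc25a53 showed no call at either week. Slc25a48 was above log2 4 on 2 arrays only and was not tested, with 4.26, 4.10 and 2.64 after 5 weeks of cold, against 2.50, 2.55 and 2.57 in the 5-week controls.

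The difference between the 2 cold effects, 5 weeks minus 1 week, was called for 12 of 38 members, 31.6%, against 19.8% of all genes tested. It was positive for 5 members and negative for 7. Of the 12855 genes tested, it was called positive for 1474 and negative for 1077, so the larger side was the positive one there and the negative one among the members. Slc25a1, Slc25a10, Slc25a11, Slc25a17, Slc25a22, Slc25a25 and Slc25a44 had the lower effect at 5 weeks, and Slc25a4, Slc25a24, Slc25a36, Slc25a42 and Slc25a46 the higher. For Slc25a24 the higher effect is a smaller fall. These directions are those of the brightest probe sets. The other 2 tested probe sets of Slc25a4 were called in the opposite direction, with -0.47 and -0.49 (limma adjusted p = 0.0457 and 0.0227). A probe set of opposite sign, not called, was also present for Slc25a24 (-0.64), Slc25a36 (-0.64), Slc25a46 (-0.14) and Slc25a44 (0.25). The difference was -2.86 ± 0.67 for Slc25a1 (adjusted p = 0.0158), -2.51 ± 0.41 for Slc25a10 (adjusted p = 0.00596) and -1.41 ± 0.18 for Slc25a22 (adjusted p = 0.00294). It was 0.84 ± 0.22 for Slc25a42 (adjusted p = 0.0229). The 2 effects of Slc25a12, which fell at both weeks, differed by -0.01, with a 95% interval of -0.59 to 0.56. This contrast takes in the arrays of highest Gapdh value on both sides. With the Gapdh measure in the fit it was called for 0 members and 3 genes of all tested, and with the Actb measure for 0 members and 0 genes, against 2551 genes without either. At an unadjusted p under 0.05 the members numbered 7 with the Gapdh measure and 6 with the Actb measure, against 23 without either, and all genes 1390 and 1004, against 4540. Without the 3 arrays of highest Gapdh value it was called for 3 members, Slc25a1, Slc25a10 and Slc25a22, an alternative chosen after the data were seen that rests on 1 control array at 1 week.

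Enzymes, channels and mitochondrial carriers of other families were read beside the members from lists of partner genes, 30 of them on the array and all tested. At 1 week 20 rose and Sfxn2 alone fell, and at 5 weeks 17 rose and none was called lower, with 0 lower at an unadjusted p under 0.05 in limma. The calls of partner genes given here are from the main fit, with neither the RNA measures nor the muscle list in it. Of all genes tested, 17.9% rose and 31.6% fell at 1 week, and 15.0% and 21.2% at 5 weeks. The median difference of the partner genes was 0.62 at 1 week and 0.44 at 5 weeks. Gpd2, the mitochondrial enzyme of the glycerol phosphate shuttle, read 13.49, 13.35 and 13.58 after 1 week of cold, against 11.74, 11.40 and 11.18 in the 1-week controls, and 13.85, 13.84 and 14.05 after 5 weeks of cold, against 11.41, 11.46 and 11.53 in the 5-week controls. It rose by 2.03 and 2.45. In the shuttle list 5 of 6 rose at both weeks, among them Gpd1, the cytosolic partner of Gpd2, by 1.78 and 1.00, and Mdh2, which makes and uses malate in the matrix, by 0.83 at each week.

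Next to Slc25a20 in the carnitine cycle, Cpt2, which returns acyl groups to coenzyme A in the matrix, rose by 1.81 ± 0.12 at 1 week (adjusted p = 2.58e-06) and by 1.83 ± 0.12 at 5 weeks (adjusted p = 2.67e-06). Its signal was 12.63, 12.63 and 12.69 after 1 week of cold, against 11.15, 10.78 and 10.59 in the 1-week controls, and 12.58, 12.62 and 12.43 after 5 weeks of cold, against 10.68, 10.71 and 10.75 in the 5-week controls. Crat, which makes acetylcarnitine, rose by 1.73 at 1 week, with 0.43 at 5 weeks (adjusted p = 0.0813). Cpt1a, the liver form of the outer enzyme, differed by -0.54 (adjusted p = 0.0553) and 0.32 (adjusted p = 0.268).

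Around the carboxylate carriers, 5 of 6 enzymes rose at 1 week and 4 of 6 at 5 weeks. Ogdh, which uses oxoglutarate, rose by 1.52 and 1.42. Cs, which makes citrate in the matrix, rose by 1.02 and 1.27, and Acly, which splits it in the cytosol, by 0.66 and 0.61. Of 10 mitochondrial carriers under other symbols, 5 rose and 1 fell at 1 week and 4 rose at 5 weeks. Mpc1, a subunit of the pyruvate carrier, rose by 1.25 and 0.71. Mtch2, a distant relative of the Slc25 proteins in the outer membrane, rose by 1.07 and 0.49, and Sfxn5, a sideroflexin, by 1.04 and 1.35. Among porins and calcium entry genes 3 of 5 rose at both weeks, namely the outer membrane channels Vdac1 (0.71 and 0.66), Vdac2 (0.59 and 0.33) and Vdac3 (0.40 and 0.38).

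**Figure D5:**
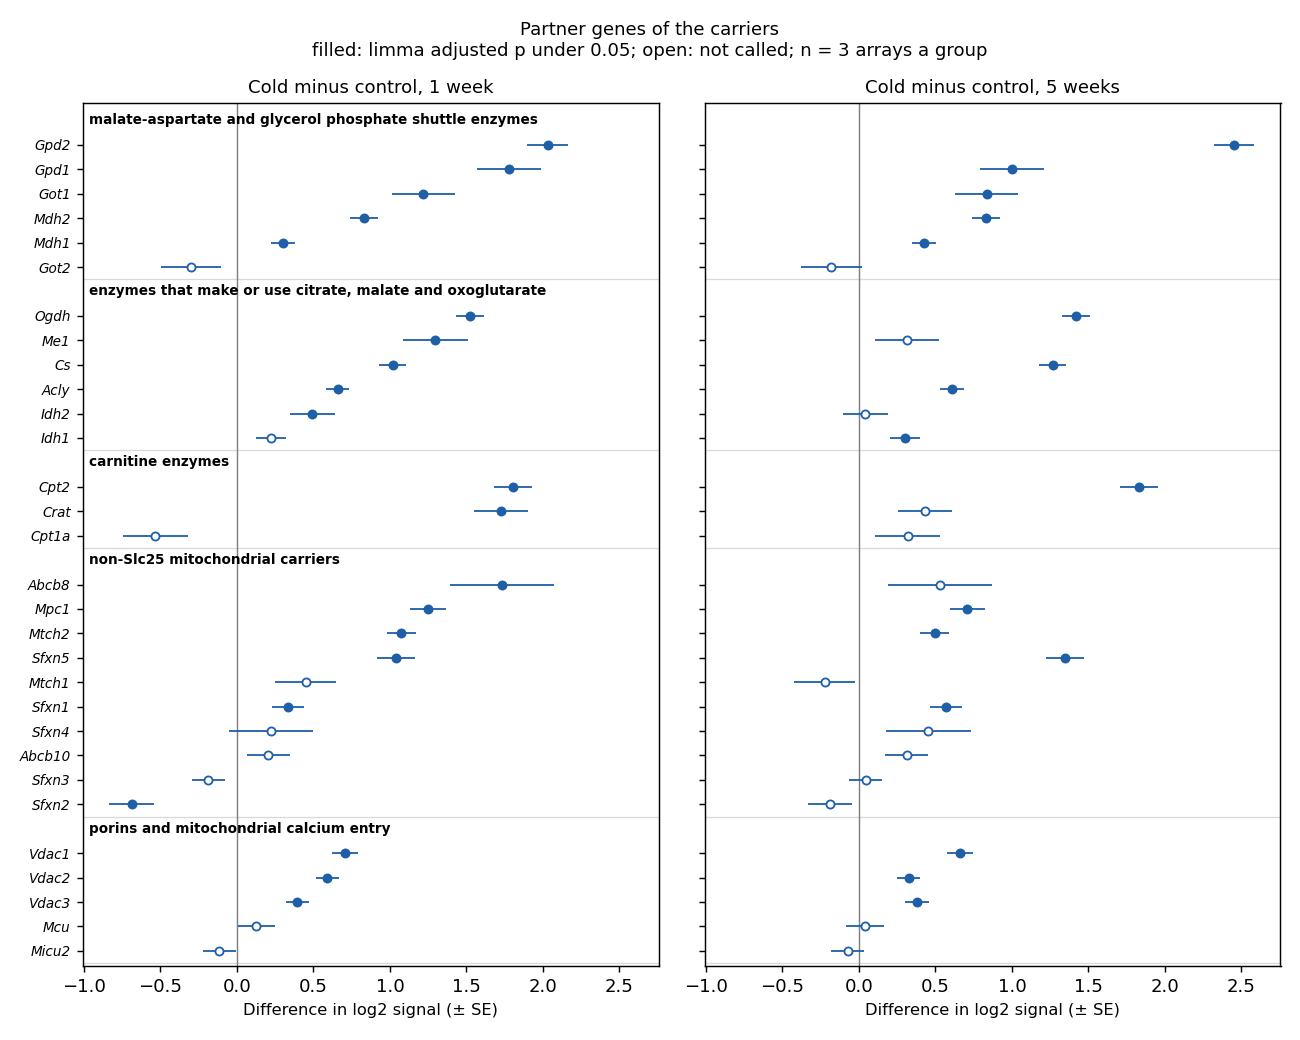
Differences in log2 signal, cold minus control, for 30 partner genes of the carriers at 1 week (left) and 5 weeks (right), with standard errors from limma and filled points where the adjusted p was under 0.05. Gpd2 lies at 2.03 and 2.45 and Cpt2 at 1.81 and 1.83, and Sfxn2, at -0.69 in the left panel, is the filled point left of 0.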

How the data were processed

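Affymetrix arrays measured 12 white adipose samples. The authors deposited a table of log2 signals made with GCRMA, per the submitters' processing notes. The GCRMA version is not stated here. That method removes background, puts the arrays on a common distribution and combines probes into a value per probe set, so low signals are compressed and differences are relative to that distribution. It listed 45101 probe sets, of which 64 controls were left out. Of the rest, 34958 named 1 gene (34754 updated through the gene identifier), 932 several and 9211 none. The number of arrays limits the precision.

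The tests used limma 3.58.1 under R 4.3.3, fitting 4 group means over all 12 arrays, with moderated 2-sided tests and Benjamini-Hochberg adjustment over 12855 genes, or over all tested probe sets for single probe sets. The procedure was tested on simulated data. Where all arrays of a group were below log2 4, signals below 4 were set to 4 and the fold is given as at least that ratio. Alternatives changed the filter, the normalization, the choice of probe set, the design and the covariates, and left out each array in turn. Replicate numbers were not used to pair the arrays in the main fit, since the labels do not say what a shared number stands for. Deviations of same-numbered cold and control arrays correlated at -0.03 to 0.07, and those of differently numbered arrays at -0.09 to 0.08. With 3 arrays a group these values cannot settle whether the arrays were paired. No arrays were identical. The members and lists were chosen with earlier results of these data known. Named genes were the members with the largest called difference of each substrate group at each week, those called in the difference of the cold effects, members not tested, and up to 3 genes of each partner list with the smallest adjusted p. Every other member could be named with its difference. Promoter windows are RefSeq's on GRCm38.p6.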

Additional observations from a re-analysis of the deposited data

Results flagged for a closer look

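For 12 members the cold effect differed between 5 weeks and 1 week by limma's test of that difference, at an adjusted p under 0.05. The difference was negative for Slc25a1 (-2.86), Slc25a10 (-2.51), Slc25a22 (-1.41), Slc25a17 (-1.004), Slc25a44 (-0.95), Slc25a11 (-0.70) and Slc25a25 (-0.52). It was positive for Slc25a42 (0.84), Slc25a46 (0.69), Slc25a24 (0.60), Slc25a36 (0.54) and Slc25a4 (0.49). The other 2 tested probe sets of Slc25a4 gave -0.47 and -0.49, both called. The 3 arrays with the highest Gapdh 3′ minus 5′ signal, 1-week controls 2 and 3 and the 5-week cold array 3, enter this contrast. Without them, which leaves 1 control array at 1 week with its spread taken to be like that of the other groups, it was -1.20 for Slc25a1 (adjusted p = 0.0388), -1.55 for Slc25a10 (adjusted p = 0.032) and -1.34 for Slc25a22 (adjusted p = 0.045), and 0.88 for Slc25a42 (adjusted p = 0.145).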

How the results depend on the processing

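With 15 alternatives and each of 12 arrays left out in turn, 12 of the 21 calls at 1 week kept their direction and their side of the threshold in all of these, and 7 of the 24 at 5 weeks (Slc25a17, Slc25a20, Slc25a23, Slc25a34, Slc25a39, Slc25a42 and Slc25a51). None of the 12 calls of the difference between weeks did. Where a count moved, the cause was not tested. With the Gapdh 3′ minus 5′ covariate, 11 members rose and 1 fell at 1 week, against 17 and 4, and 3035 genes were called in all, against 6361; the difference between weeks was called for 0 members, against 12, and 3 genes, against 2551. With the Actb covariate, 8 members rose and 1 fell at 5 weeks, against 18 and 6, 795 genes were called, against 4655, and the difference for 0 members and 0 genes. With the muscle list as covariate, 1 member fell at 5 weeks, 2396 genes were called, and the difference for 4 members and 719 genes. With the 5-week controls averaged and counted as 1, which leaves fewer arrays, 1 member fell, 1608 genes were called, and the difference for 0 members (15 at an unadjusted p under 0.05) and 1 gene. Without the 1-week controls 2 and 3, which leaves 1 control array at that week and takes its spread from the other groups, 2 members fell at 1 week, 2884 genes were called, and the difference for 1 member and 133 genes. Without the 3 arrays of highest Gapdh value, chosen after seeing the data, 3156 genes were called at 1 week, and the difference for 3 members and 160 genes. Members that fell at 1 week numbered 2 after median centring, after quantile normalization and in the fit on the 6 arrays of the week. The mean of all probe sets, or of those that passed the filter, gave 6 members in the difference. Median centring moved the median of all genes to 0.14 at 1 week and 0.13 at 5 weeks, and the share of calls that were higher to 63.9% and 66.6%, against 36.2% and 41.4% (quantile normalization 45.7% and 53.1%).

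Leaving out each array in turn gave 15 to 18 members that rose and 2 to 4 that fell at 1 week, 15 to 18 and 4 to 8 at 5 weeks, and 6 to 14 in the difference; over all genes it gave 5310 to 6477, 3513 to 4999 and 1381 to 3021. The lowest counts of the difference came without 5-week control 2 (6 members, 1381 genes), 5-week control 1 (7 and 1389) and 1-week control 2 (7 and 1455); without 5-week cold array 3 it was called for 1583 genes. Among values called in the main analysis or under the alternative, 6 changed sign (121 others changed sign and were called in neither). These were Slc25a30 at 1 week (0.031 with the mean of all probe sets), and, in the difference between weeks, Slc25a4 (-0.13 with the mean of all probe sets and -0.15 with those that passed), Slc25a24 (-0.024 with either mean) and Slc25a12 (0.80 with the muscle covariate). With the replicate block, a pairing by number only, 18 members rose and 3 fell at 1 week, 18 rose and 6 fell at 5 weeks, and 13 were called in the difference.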
